A study of Mus musculus with 8 samples.

Results

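B16F1 melanoma tumours that had been irradiated in mice lacking both receptors for tumour necrosis factor (TNF) were compared with B16F1 tumours irradiated in wild-type mice. The comparison takes every array labelled as irradiated, 2 per host and 4 of the 8 in the series, and covers all 45037 non-control probe sets of the Affymetrix mouse array. B16F1 is a pigmented mouse melanoma line grown here under the skin of the right hind limb. The wild-type hosts were C57BL/6-NCr mice. The receptor-deficient hosts, called TNFR 1, 2 -/- in the labels, came from breeding pairs that carry disrupted Tnfrsf1a and Tnfrsf1b alleles on a mixed B6 and 129S stock, while the sample labels give the host strain as C57BL/6 for both hosts. Mice were 8 to 12 weeks old, 5 to 7 were injected, and tumours had reached 268 to 478 mm3. The irradiated groups received a single dose of 20 Gy to the tumour-bearing limb and the tumours were excised 5 hours later. The other 4 arrays hold untreated tumours in the same 2 hosts and serve below as the comparator without irradiation. The deletion is in every cell of the host, so stroma, vessels and infiltrating leukocytes lack both receptors, while the injected tumour cells carry their own receptor genes.

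Each group is 1 pool of tumour RNA put on 2 arrays that the labels call technical replicates. All p-values therefore measure the spread between duplicate arrays of these pools and compare the pools, not hosts. Arrays of 1 pool correlated at 0.975 to 0.981 over log2 signals, and irradiated arrays of different hosts at 0.958 to 0.96. Host and target preparation cannot be told apart. The Bacillus poly-A control transcripts, which are added to RNA before labelling, were present on the wild-type arrays only. In irradiated tumours the dap control averaged 22472 on the wild-type arrays and 14.9 on the receptor-deficient arrays, and the thr control averaged 9171 and 24.7. The hybridisation controls bioB, bioC, bioD and cre, which are added after labelling, differed by 1.06 to 1.1 times between the irradiated hosts. The 18S rRNA probe sets averaged 335 and 345 on the irradiated wild-type arrays and 932 and 956 on the irradiated receptor-deficient arrays, so that ribosomal signal moved with the host as well. The ratio of 5′ to 3′ signal was 0.731 and 0.797 for actin and 1.19 and 1.18 for Gapdh, wild-type first. The part of these differences in the results below was not tested.

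**Figure D1:**
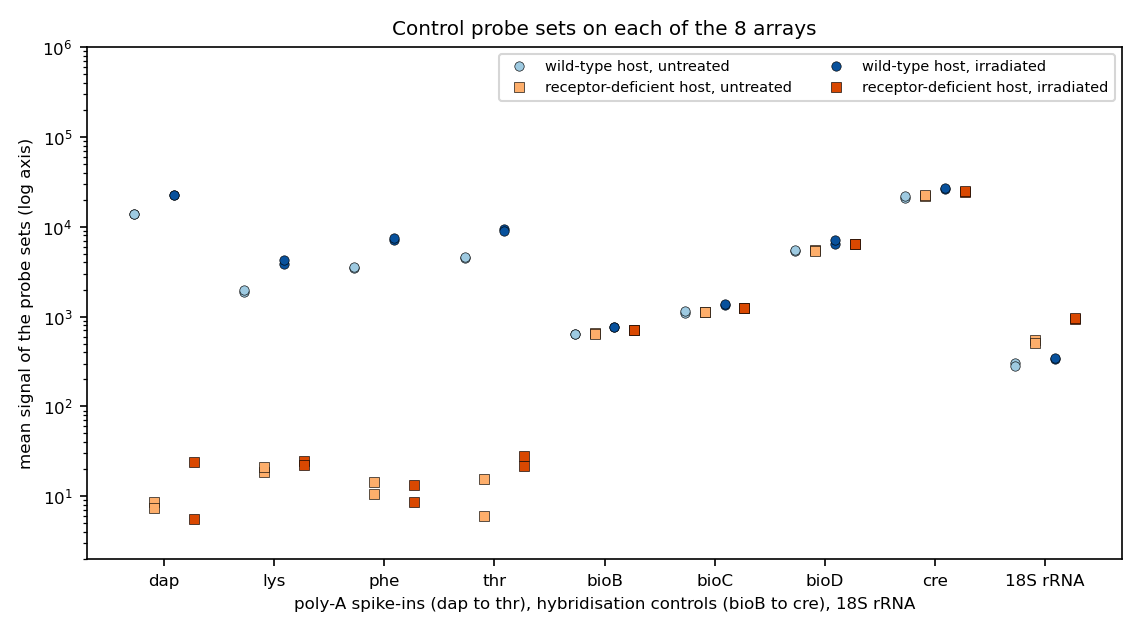
Mean signal of each control on the 8 arrays (log axis), by host and treatment, 2 points per group. The 4 poly-A controls average 1925 to 22472 by group on wild-type arrays and 8.1 to 24.7 on receptor-deficient arrays, the hybridisation controls differ by 1.06 to 1.1 times between the irradiated hosts, and 18S rRNA is highest on the irradiated receptor-deficient arrays.

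TNF is a cytokine released early in inflammation, largely by macrophages and mast cells. The receptor encoded by Tnfrsf1a is found on most cells and signals through adaptor proteins to the transcription factor NF-kB or to cell death, and the receptor encoded by Tnfrsf1b is found mainly on leukocytes and endothelium. NF-kB switches on chemokines, adhesion molecules and acute-phase proteins, and it induces its own inhibitors, which end the response. Radiation injures cells in a sterile way and can call in neutrophils and macrophages through the same circuit.

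The receptor genes themselves were read first. Values are signals in arbitrary units, replicate 1 and then replicate 2, and are from irradiated tumours unless stated. Tnfrsf1a read 3933 and 3816 on the wild-type arrays and 4339.6 and 4053 on the receptor-deficient arrays. The groups did not overlap, but the difference of 0.11 on the log2(signal + 16) scale missed the threshold (limma adjusted p = 0.209). Tnfrsf1b read 451 and 380.3 on the wild-type arrays and 108 and 147 on the receptor-deficient arrays. Both receptor-deficient arrays were far below both wild-type arrays, a difference of -1.60 ± 0.20 (SE, adjusted p = 0.00117). In untreated tumours the hosts were closer, at 225.2 and 157.5 against 127.6 and 127.3, wild-type first. Another, dimmer probe set for Tnfrsf1b read 141 and 37.8 on the wild-type arrays and 126 and 101 on the receptor-deficient arrays, and the groups overlapped there. Which parts of the 2 genes these probe sets cover, relative to the disrupted parts, was not examined here, so they check the host labels only weakly. Tnf, the ligand, was dim: it read 35 and 10.2 on the wild-type arrays and 11.8 and 15.9 on the receptor-deficient arrays, overlapped between hosts and was not tested.

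Of 11345 genes tested, each by its brightest probe set, 843 were lower and 90 were higher in irradiated tumours of receptor-deficient hosts, at an adjusted p under 0.05 and at least 2-fold. These are 7.43% and 0.793% of the genes tested, and they are the background against which the counts of called genes in the lists below are to be read. At an unadjusted p under 0.05, limma gave 3631 higher and 3323 lower of the 11345. List counts at that level are to be read against these. The largest differences were all in the lower direction: 50 genes were at least 4-fold lower, 12 at least 8-fold and 7 at least 16-fold, against 1 gene at least 4-fold higher. Without the fold threshold, 3093 genes were lower and 3223 higher. The median over all tested genes was 0.06. Over all 45037 probe sets, 2068 (4.59%) were lower and 407 (0.904%) higher. The 2-fold edge runs through a dense part of the distribution: 114 called genes lay between -1.05 and -1, and 113 genes with an adjusted p under 0.05 lay between -1 and -0.95. The count of higher genes rose to 140 without the first wild-type array.

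Untreated tumours of the 2 hosts, which share no pool with the irradiated ones, gave 709 lower genes (6.25%) and 234 higher genes (2.06%). Higher genes made up 24.8% of the calls in untreated tumours and 9.65% in irradiated tumours. With arrays centred on their medians the order turned, to 10.3% and 13.3%, and with quantile normalization the shares were 25.5% and 18.9%. Of the 843 genes lower after irradiation, 487 (57.8%) were also lower in untreated tumours, which is 68.7% of the untreated list. Of the 90 higher genes, 20 (22.2%) were also higher in untreated tumours. Across genes the host differences of the 2 treatments had a Pearson correlation of 0.724 and a Spearman correlation of 0.69; genes are not independent, and both comparisons set receptor-deficient against wild-type arrays that differ in spike-ins.

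The difference between the host differences, irradiated minus untreated, was then tested for each gene. It was called lower for 233 genes (2.05%) and higher for 18 (0.159%), the latter 101 with arrays centred on their medians and 32 with quantile normalization. The lower count was 155 or 148 without the first or the second untreated receptor-deficient array, and the higher count fell to between 6 and 8 without the first untreated receptor-deficient, the second irradiated receptor-deficient or the first untreated wild-type array. Among the 843 lower genes this test separates 92 whose host difference was more negative after irradiation than without, 477 that were lower in both treatments with no called difference, and 274 called lower only after irradiation with no called difference. In the plot of the 2 host differences the 92 genes fall below the diagonal and the 477 lie nearer to it. The classes were defined by that same difference, so these places are no further result. The immune lists described below hold 202 of the 11345 tested genes (1.78%), 47 of the 92 (51.1%) and 6 of the 477 (1.26%). Those lists were chosen with earlier results of these arrays known.

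**Figure D2:**
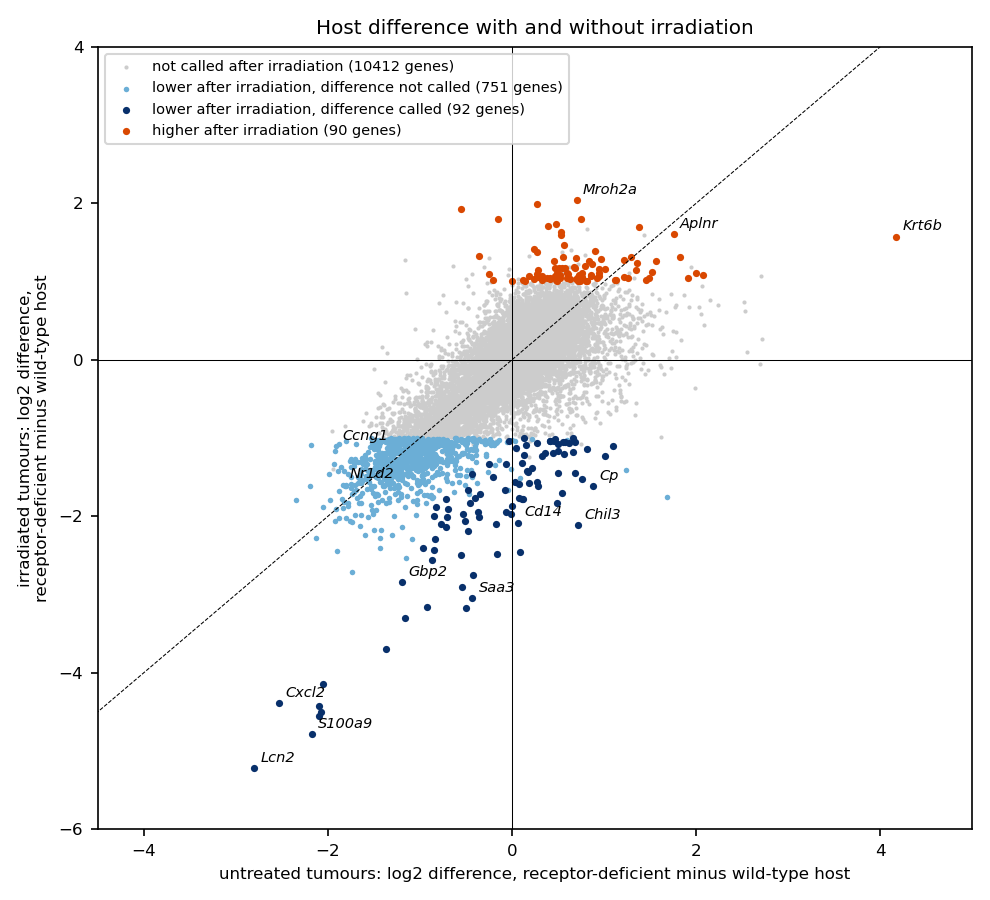
Log2 difference, receptor-deficient minus wild-type host, of each tested gene in untreated tumours (x axis) and irradiated tumours (y axis), with the line of equal difference dashed. Genes lower after irradiation with a called difference between treatments (92 genes, dark blue) reach -5.22 for Lcn2, while the other 751 lower genes lie nearer the dashed line. The classes were defined by the difference between treatments, which fixes their places about that line.

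The largest gap was in secreted proteins of neutrophils and inflamed epithelium. Lcn2 encodes lipocalin 2, which binds bacterial siderophores. It read 4535 and 4334 on the wild-type arrays and 122 and 87.5 on the receptor-deficient arrays. Both wild-type arrays were far above both receptor-deficient arrays, a 37.2-fold difference of -5.22 ± 0.16 (SE, adjusted p = 4.98e-05). S100a9 and S100a8 encode the 2 chains of calprotectin, the main cytosolic protein of neutrophils. S100a9 read 9008 and 9436 on the wild-type arrays and 334 and 302 on the receptor-deficient arrays, and S100a8 read 13659.9 and 14076 against 603 and 589.7 in the same order. Their differences were -4.79 ± 0.082 (SE, adjusted p = 7.88e-06) and -4.5 ± 0.076 (SE, adjusted p = 7.88e-06). In untreated tumours the same genes were already lower in receptor-deficient hosts: Lcn2 read 1696 and 1681 against 206 and 254, S100a9 1331 and 1477 against 292 and 303 and S100a8 2047 and 2314 against 514 and 492, wild-type first. The wild-type arrays read far higher after irradiation than without it. The receptor-deficient arrays did not, and for Lcn2 they read lower after irradiation, so both hosts entered the change in its gap. The gap differed between treatments by -2.42 ± 0.22 (SE, adjusted p = 0.00517) for Lcn2, -2.61 ± 0.12 (SE, adjusted p = 0.000943) for S100a9 and -2.42 ± 0.11 (SE, adjusted p = 0.000943) for S100a8.

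**Figure D3:**
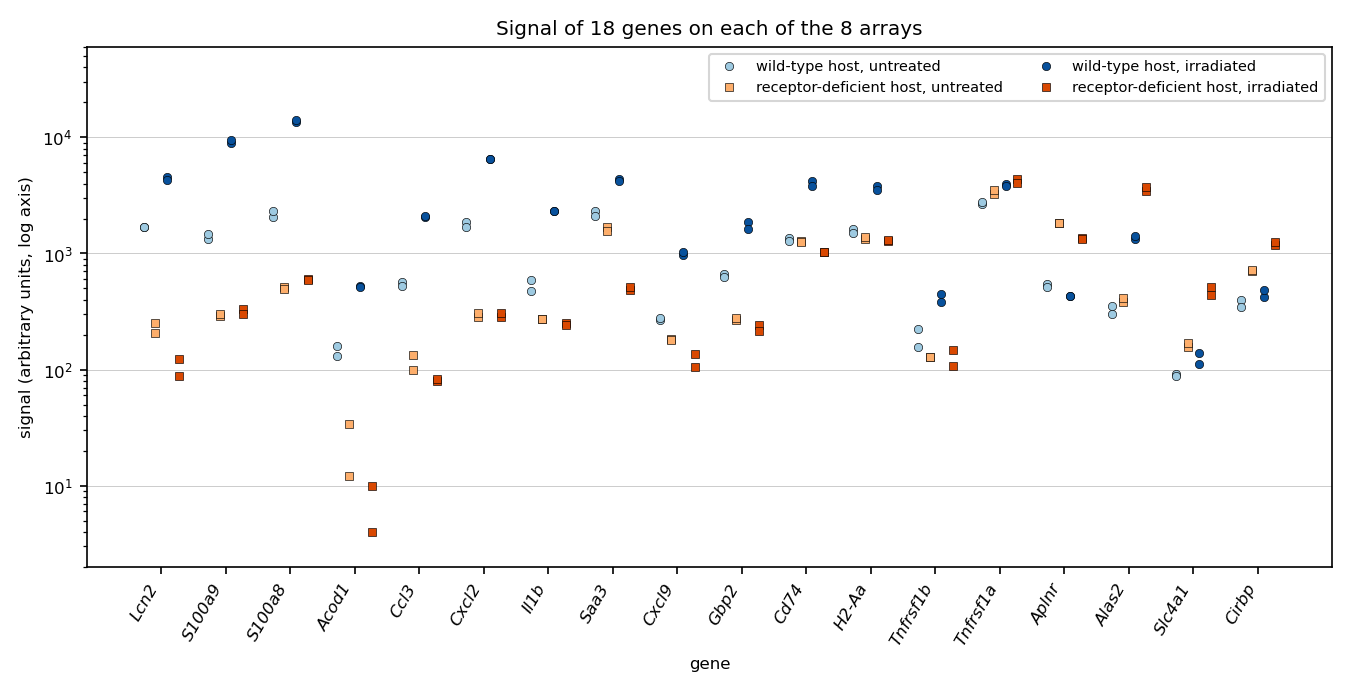
Signal of 18 genes on each array (log axis), 2 points per group, circles for wild-type and squares for receptor-deficient hosts, dark for irradiated tumours. For the genes from Lcn2 to H2-Aa the irradiated wild-type arrays are the highest group, while Tnfrsf1a is level between hosts and Aplnr, Alas2, Slc4a1 and Cirbp are higher in receptor-deficient hosts after irradiation.

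Of 11 tested genes in the list of neutrophil identity and granules, 8 were called lower and none higher, with a median of -1.56 against 0.06 over all tested genes. Beside the calprotectin genes and Lcn2, they were Stfa2l1 (-2.50), Il1r2 (-1.72), Mmp9 (-1.56), Csf3r (-1.28) and Clec4d (-1.22). Csf3r, the receptor for granulocyte colony-stimulating factor and a marker of neutrophils themselves, read 255 and 210.3 on the wild-type arrays and 56.7 and 127 on the receptor-deficient arrays. Its difference was -1.28 ± 0.37 (SE, adjusted p = 0.0269), smaller in size than that of calprotectin. The call of Clec4d was lost without the first receptor-deficient array. Cxcr2, the neutrophil chemokine receptor, was too dim to be tested and read 84.8 and 59.3 against 20.2 and 28.2, wild-type first. The summed signal of the 5 neutrophil markers on the array was 23233.1 and 24071.7 on the wild-type arrays and 1137.6 and 1190.0 on the receptor-deficient arrays, most of it from S100a8 and S100a9. In tissue RNA, fewer cells of a type and less RNA per cell cannot be told apart.

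Chemokines that draw neutrophils and monocytes were lower, but not all of them. Cxcl2 and Cxcl3, ligands of Cxcr2, and Ccl3, which attracts monocytes and macrophages, were among the 7 genes at least 16-fold lower. Cxcl2 read 6494 and 6493 on the wild-type arrays and 281 and 308 on the receptor-deficient arrays, a difference of -4.39 ± 0.078 (SE, adjusted p = 7.88e-06). The duplicate arrays were nearly equal within each host. Cxcl3 read 2633 and 3534 against 135 and 183 (difference -4.14), and Ccl3 read 2057 and 2097 against 80.5 and 82.8 (difference -4.42), wild-type first. Cxcl2, Cxcl3 and Ccl3 were also lower without irradiation, by less. Their differences between treatments were -1.86, -2.08 and -2.32, smaller in size than those after irradiation. Ccl4, a close relative of Ccl3 on the same receptor, read 1139.9 and 1170.1 against 251 and 250.2, a difference of -2.13 ± 0.058 (SE, adjusted p = 4.26e-05). Ccl5, an attractant of T cells and monocytes, read 905 and 892 against 462 and 361, a difference of -1.11 ± 0.18 (SE, adjusted p = 0.00289); in untreated tumours it had been higher in receptor-deficient hosts (492 and 352 against 913 and 907), and the difference between treatments was -2.21 ± 0.25 (SE, adjusted p = 0.00935). Without the second receptor-deficient array, Ccl5 was no longer called after irradiation. Cxcl1, another ligand of Cxcr2, was not called after irradiation, with 836 and 928 on the wild-type arrays and 507 and 558 on the receptor-deficient arrays and a difference of -0.71 ± 0.13 (SE, adjusted p = 0.00445). Ccl2 (-0.15), Ccl7 (0.10), Cxcl10 (0.37) and Cxcl11 (-0.04) were not called either. By list, 2 of 5 tested CXC ligands and receptors of neutrophils, 3 of 9 tested CC chemokines and 1 of 4 interferon-induced chemokines were called lower, and none was called higher. Without irradiation the same lists had 2, 1 and 0 called lower and 0, 1 and 0 called higher.

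The promoters of Cxcl2 and Cxcl3 hold NF-kB matches of the same letters, shown because these ligands lie 16-fold or more apart between hosts. The stretches run from 130 to 31 bases before the annotated start (RefSeq, GRCm38.p6), with matches to the NF-kB consensus in capitals. Cxcl2 lies at chr5:90903769-90903868, plus strand, and Cxcl3 at chr5:90785971-90786070, plus strand.
Cxcl2: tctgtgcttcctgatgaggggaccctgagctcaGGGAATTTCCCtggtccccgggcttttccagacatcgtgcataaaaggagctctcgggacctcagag
Cxcl3: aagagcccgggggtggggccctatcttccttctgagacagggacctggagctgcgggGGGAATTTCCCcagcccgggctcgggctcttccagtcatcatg
In both, the capitals are 1 element of 11 bases that matches the consensus on both strands. Of the 15 genes with the largest negative differences, 14 have a promoter in the RefSeq table and 2 of them hold a match, these 2. Lcn2, Saa3, Il1b, S100a8, S100a9 and Ccl3 hold none in the 250 bases before the start, which says only that these letters are not in that window.

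Acute-phase and interleukin-1 genes followed. Saa3, serum amyloid A made in inflamed tissue, read 4355 and 4195 on the wild-type arrays and 485 and 519 on the receptor-deficient arrays, a difference of -3.05 ± 0.078 (SE, adjusted p = 4.26e-05). In untreated tumours Saa3 read 2312 and 2103 against 1698 and 1571, which is close between hosts, and the difference between treatments was -2.62 ± 0.11 (SE, adjusted p = 0.000943). Hp, haptoglobin, read 340.5 and 319 against 40.9 and 50.6 (difference -2.49), and Cp, the copper-carrying ferroxidase ceruloplasmin, read 848 and 787 against 268 and 245 (difference -1.61). Cp was higher in receptor-deficient hosts without irradiation (599 and 599 against 1115 and 1116) and lower after it, a difference between treatments of -2.49 ± 0.098 (SE, adjusted p = 0.000943). In all, 4 of 5 tested acute-phase genes were called lower, with a median of -2.49. Il1b, the secreted interleukin-1 cytokine, read 2304 and 2320.3 on the wild-type arrays and 250.2 and 241 on the receptor-deficient arrays, a difference of -3.15 ± 0.10 (SE, adjusted p = 5.61e-05). Il1rn, its natural antagonist, read 1019 and 1004 against 265 and 266 after irradiation and 307 and 304 against 304 and 305 without, so the hosts were apart only in the first (-1.86 ± 0.072 (SE, adjusted p = 0.000943) between treatments). Other probe sets of Il1rn gave host differences of -2.02 and -0.58 after irradiation. Il1r2, a decoy receptor, read 438 and 346 against 107 and 108, and Il18bp, which neutralises interleukin-18, read 376 and 481 against 140.3 and 159. Casp4, which senses intracellular lipopolysaccharide, had a difference of -1.04 whose call was lost without the first receptor-deficient or the second wild-type array. Of 11 tested genes of this family 6 were called lower, with a median of -1.02.

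Genes of the TNF pathway were read by role. Of 11 tested TNF ligands and receptors, Tnfrsf1b alone was called. Of 17 tested adaptors, 2 were called lower. Birc3, a ubiquitin ligase that is both part of the receptor complex and a NF-kB target, read 438 and 507 on the wild-type arrays and 145 and 112 on the receptor-deficient arrays, a difference of -1.76 ± 0.16 (SE, adjusted p = 0.000395). Map3k7, the kinase TAK1 that relays the signal to IKK, read 798 and 720.3 against 349 and 370.5 (difference -1.04), and was equally lower in untreated tumours (-1.16). The call for Map3k7 was lost with the mean of its probe sets, with quantile normalization and without the first wild-type array. Among NF-kB subunits and inhibitors 2 of 15 were called lower, both feedback regulators. Tnfaip3, the deubiquitinase A20, read 526 and 553 against 189.6 and 189.5 (difference -1.43 ± 0.062 (SE, adjusted p = 7.95e-05)), and Nfkbiz, an atypical nuclear inhibitor that co-activates a subset of targets, read 724 and 789 against 213 and 242 (difference -1.67 ± 0.094 (SE, adjusted p = 0.000116)). Without irradiation Tnfaip3 was close between hosts (198 and 184 against 216 and 220.2; -1.61 ± 0.088 (SE, adjusted p = 0.00172) between treatments). Another probe set of Nfkbiz gave -0.875 after irradiation. Rela (0.27), Relb (0.07) and Nfkb2 (0.72) were not called. Nfkbia, the classical inhibitor, missed the 2-fold line after irradiation at -0.75, but its host difference was 0.90 without irradiation, and the gap between treatments was called (-1.65 ± 0.11 (SE, adjusted p = 0.00202)).

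In the list of TNF and NF-kB target genes, 7 of 21 were called lower and none higher, with a median of -0.49 after irradiation and 0.48 without. The difference between treatments was called lower for 12 of the 21. The 7 were Cxcl2, Il1b, Ptgs2, Birc3, Mmp9, Tnfaip3 and Ccl5. Ptgs2, the inducible cyclooxygenase, read 296 and 304 on the wild-type arrays and 39.6 and 58.5 on the receptor-deficient arrays, a difference of -2.30 ± 0.22 (SE, adjusted p = 0.00047). Mmp9, gelatinase B of neutrophils, read 332 and 391 against 128 and 96.3 (difference -1.56 ± 0.23 (SE, adjusted p = 0.00202)). Other members were close between hosts: Sod2 had a difference of 0.31, Ier3 0.46, Tnfaip2 0.63, Ccl2 -0.15 and Irf1 -0.25, none of them called. The members at or past 4-fold that were too dim to be tested, in this and the other lists, were Hdc, the histamine-forming enzyme of mast cells and neutrophils (401 and 372 against 8.5 and 10.5, wild-type first), Csf3, granulocyte colony-stimulating factor (158 and 186 against 12.8 and 12.4), Inhba, the activin subunit (127 and 127 against 13.7 and 10.9), Retnla (169 and 272 against 20.5 and 66.1), Il1a (98.7 and 53 against 6.7 and 3.6) and Steap4 (122 and 99.5 against 21.7 and 7.8). These 6 were picked for a gap of that size, so the separation of their arrays is no further result. Of 6848 genes not tested, 17 were at least 4-fold lower and 0 at least 4-fold higher.

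Macrophage genes were listed as those of the activated state and those of cell identity, and the difference between the lists was not tested. Of 12 tested activation genes 9 were called lower, with a median of -1.73. Acod1, which makes itaconate in activated macrophages, read 526 and 515 on the wild-type arrays and 10 and 4.0 on the receptor-deficient arrays, near the floor of the array in the receptor-deficient host. Its difference of -4.56 ± 0.28 (SE, adjusted p = 0.000151) depends on the pseudocount, being -6.36 with none and -3.04 with 64. With 64 it was under 16-fold, as were Ccl3 (-3.88) and Cxcl3 (-3.81). Clec4e, the receptor Mincle for mycobacterial and damage signals, read 687 and 734 against 39.9 and 40.1 (difference -3.70 ± 0.095 (SE, adjusted p = 4.26e-05)). Acod1 and Clec4e were also lower without irradiation, by less, with differences between treatments of -2.46 and -2.33. Chil3, a chitinase-like protein of alternatively activated macrophages, had the largest negative difference between treatments of the called genes: 180.0 and 164 against 20.6 and 35.5 after irradiation, 118 and 118 against 214 and 195 without, and -2.83 ± 0.23 (SE, adjusted p = 0.0031) between them. Among identity genes 4 of 19 were called lower and none higher, with a median of -0.52 and 16 of the 19 below 0: Cd14 (-2.08), the co-receptor for lipopolysaccharide, Ptprc (-1.23), the pan-leukocyte antigen CD45, Mertk (-1.07), a receptor for apoptotic cells, and Tyrobp (-1.06), a signalling adaptor. Csf1r, the lineage receptor, read 1251 and 1251 on the wild-type arrays and 1189 and 1206 on the receptor-deficient arrays, and C1qa, a complement chain of tissue macrophages that stands in the complement list, read 2295 and 2384 against 2054 and 1964. The first overlapped in no array but differed by only -0.06, and the second by -0.22; neither was called. The calls of Ptprc and Mertk were lost with the larger pseudocount, and that of Mertk also without the second receptor-deficient array. Adgre1, the antigen F4/80, overlapped between hosts (478 and 404 against 414 and 481). The summed signal of 6 macrophage markers was 6633.1 and 6455.6 on the wild-type arrays and 5726.3 and 5542.7 on the receptor-deficient arrays. Without irradiation the same markers were higher in receptor-deficient hosts, at 8701.7 and 8394.5 against 3910.5 and 3820.0, and for 13 of the 19 identity genes the difference between treatments was called lower.

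Receptors that sense microbes and damage had 5 of 15 tested genes called lower. Fpr2, a formyl peptide receptor of phagocytes, read 613 and 558 on the wild-type arrays and 78.9 and 30.4 on the receptor-deficient arrays, a difference of -3.18 ± 0.31 (SE, adjusted p = 0.000541); the difference between treatments was -2.68 ± 0.44 (SE, adjusted p = 0.0237). Cd14 read 2350.1 and 2255 against 553 and 511 after irradiation and 452 and 380.5 against 476 and 397 without, a difference between treatments of -2.15 ± 0.17 (SE, adjusted p = 0.00298). Ly96, the partner of Toll-like receptor 4 also known as MD-2, read 754 and 655 against 315 and 190.3 (difference -1.46). Srgn, the granule proteoglycan serglycin of blood cells, belonged to none of the lists but was among the 15 lowest genes: it read 6928 and 6514 against 973 and 987 after irradiation and 1359 and 1540.4 against 1023 and 1138 without. Wfdc21, a small secreted protein of the whey acidic protein family, read 544 and 519 against 41 and 37.9, a difference of -3.30. G0s2, an inhibitor of triglyceride lipase, read 952 and 981 against 181 and 147 after irradiation and 312 and 257 against 307 and 299 without, and its gap between treatments was -2.55 ± 0.17 (SE, adjusted p = 0.00223).

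The second large block was made of interferon-induced genes. All 8 tested interferon-induced GTPases, which attack vacuoles that hold microbes, were called lower, with a median of -2.13. Gbp2 read 1859 and 1621 on the wild-type arrays and 244 and 214 on the receptor-deficient arrays, a difference of -2.84 ± 0.096 (SE, adjusted p = 5.61e-05). Iigp1 read 1271 and 1200.4 against 188 and 163 (difference -2.71), Gbp6 270.3 and 312 against 42.8 and 30 (-2.56), Gbp7 577 and 602 against 124 and 96 (-2.27) and Irgm2 933 and 1075 against 212 and 274 (-1.98). No wild-type array overlapped a receptor-deficient array in these, but they were named for the size of the gap, so this is no further result. The median of the 8 was also low without irradiation, at -1.12 with 5 of 8 called, and the difference between treatments was called for only 2, Gbp2 and Gbp6. Of 26 antiviral interferon-stimulated genes 11 were called lower and none higher, with a median of -0.76. Zbp1, a sensor of nucleic acid in the Z form, read 742 and 757 on the wild-type arrays and 126 and 125 on the receptor-deficient arrays, a difference of -2.44 ± 0.081 (SE, adjusted p = 5.61e-05). Ifit1, which binds viral RNA, read 713 and 657 against 120.5 and 112 (difference -2.40 ± 0.11 (SE, adjusted p = 8.73e-05)), Oasl2 673 and 702 against 181 and 182 (-1.83), Ifit3 1474 and 1386 against 442 and 376 (-1.77) and Parp9 799.8 and 757 against 330.2 and 254 (-1.38). Slfn4, a schlafen gene of myeloid cells, read 637 and 657 against 135 and 123 (difference -2.19). Cxcl9, the interferon-gamma chemokine for T cells, read 969 and 1032 on the wild-type arrays and 105 and 135 on the receptor-deficient arrays, a difference of -2.91 ± 0.11 (SE, adjusted p = 6.93e-05) with -2.37 ± 0.16 (SE, adjusted p = 0.00212) between treatments.

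Stretches of 100 bases from 3 of these promoters are shown because the interferon response core, searched as GAAANNGAA on both strands, is in capitals there; a match on the opposite strand begins with TTC. Gbp2 (chr3:142620533-142620632, plus strand) and Ifit1 (chr19:34640759-34640858, plus strand) are shown from 130 to 31 bases before the annotated start and Cxcl9 (chr5:92328210-92328309, minus strand) from 230 to 131 bases before it (RefSeq, GRCm38.p6).
Gbp2: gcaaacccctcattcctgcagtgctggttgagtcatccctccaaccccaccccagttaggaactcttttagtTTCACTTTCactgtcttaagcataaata
Ifit1: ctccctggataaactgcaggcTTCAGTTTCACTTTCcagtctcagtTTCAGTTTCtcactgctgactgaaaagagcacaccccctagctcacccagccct
Cxcl9: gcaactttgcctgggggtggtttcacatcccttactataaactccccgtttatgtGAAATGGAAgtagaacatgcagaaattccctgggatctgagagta
Gbp2 has 1 match, Ifit1 has 3, of which 2 overlap, and Cxcl9 has 1. All 6 of the 8 GTPase genes that have a promoter in the table hold a match, as do 7 of the 17 antiviral genes with a promoter (41.2%), against 545 of 9238 tested genes with a promoter (5.9%).

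Genes of antigen presentation by MHC class II were lower after irradiation and close between hosts without it. All 6 tested genes were called lower, with a median of -1.64, and in all 6 the difference between treatments was called, with none called in untreated tumours (median -0.04). H2-Aa, a class II chain, read 3820.1 and 3534 on the wild-type arrays and 1286 and 1304 on the receptor-deficient arrays, a difference of -1.49 ± 0.068 (SE, adjusted p = 9.04e-05). H2-Eb1 read 2099 and 1978 against 574 and 590.4 (difference -1.78 ± 0.097 (SE, adjusted p = 0.00011)), and H2-Ab1 read 1536 and 1296 against 468 and 539 (difference -1.46 ± 0.11 (SE, adjusted p = 0.000229)). Cd74, the invariant chain, read 4182 and 3801 against 1030.3 and 1024 after irradiation and 1354 and 1289 against 1283 and 1246 without, a difference between treatments of -1.88 ± 0.097 (SE, adjusted p = 0.00172). H2-DMa, which loads peptide, read 787 and 738 against 185 and 179 and 213 and 225 against 191 and 246 in the same order (-1.96 ± 0.16 (SE, adjusted p = 0.00384)). The irradiated wild-type arrays stood above all 6 other arrays for H2-Aa, H2-Eb1, Cd74 and H2-DMa. MHC class I and peptide loading had 3 of 15 called lower: the immunoproteasome subunits Psmb8 (2774 and 2899 against 1248 and 1201, difference -1.20) and Psmb9 (2661 and 2647 against 1106 and 1194, -1.20) and the peptide trimmer Erap1 (-1.28). The constitutive proteasome had 1 of 31, Psmc6 (-1.47), which was as low without irradiation (-1.31).

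**Figure D4:**
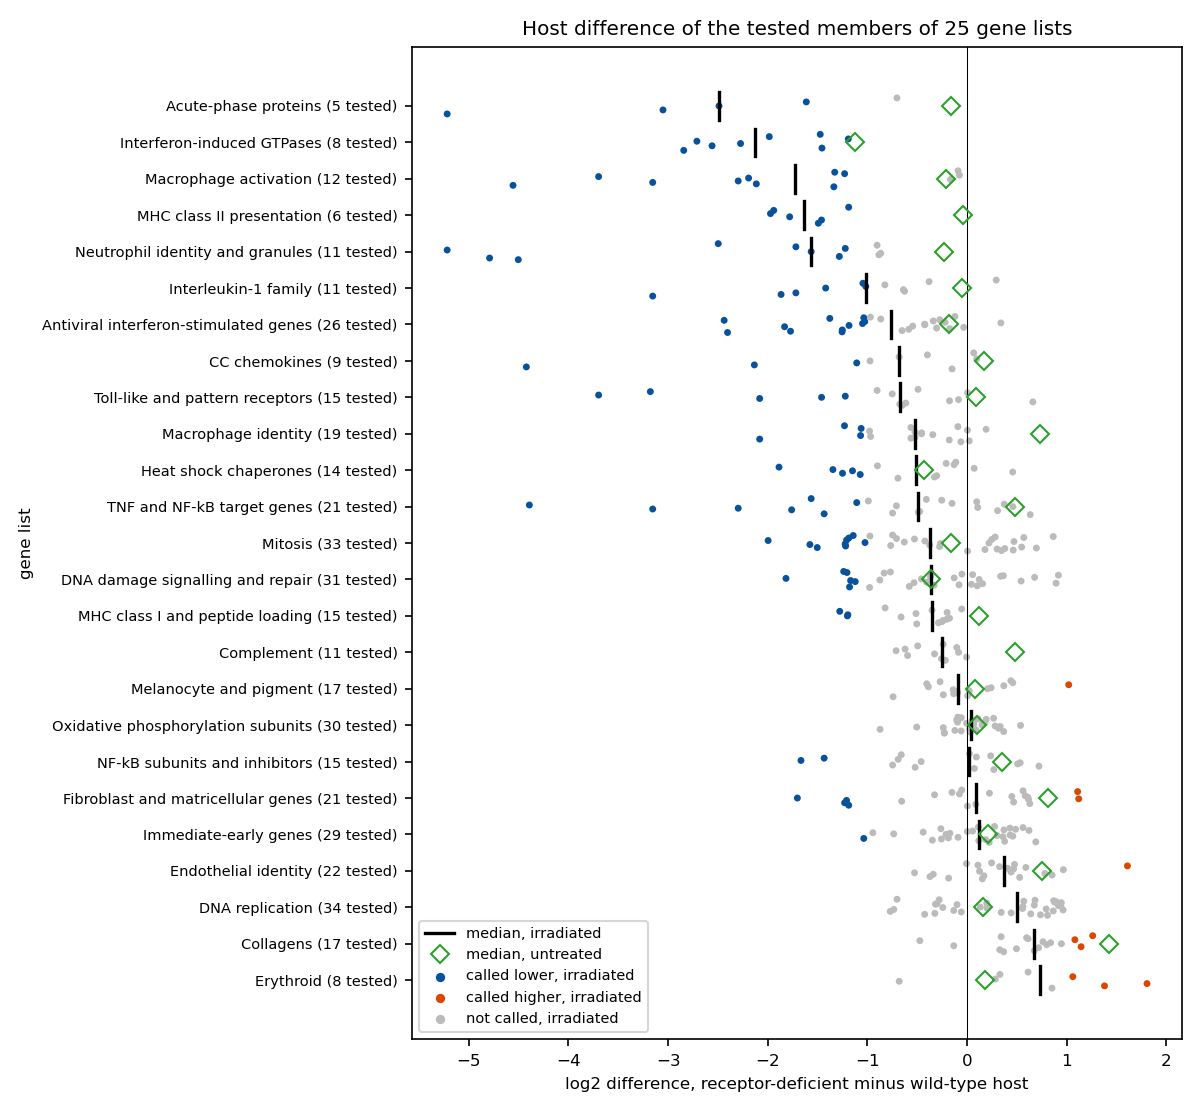
Log2 difference, receptor-deficient minus wild-type host, in irradiated tumours for each tested member of 25 gene lists (points), with the list median in irradiated tumours (black bar) and untreated tumours (green diamond). Acute-phase genes (median -2.49), GTPases (-2.13), macrophage activation genes (-1.73) and class II genes (-1.64) lie lowest, and erythroid genes (0.73) and collagens (0.67) highest.

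Promoter matches were counted in each class of called genes, as a description with no test. Each motif was searched on both strands in the 250 bases before the annotated start, and 9238 of the 11345 tested genes (81.4%) have a promoter in the table. Among 68 genes whose host difference was more negative after irradiation, 22.1% held the interferon response core, against 5.79% of 397 genes lower in both treatments and 5.9% of all tested genes. The AP-1 site TGANTCA was held by 14.7%, 2.77% and 4.1% in the same order, and the TATA box letters TATAAA by 25%, 2.77% and 6.37%. The NF-kB consensus was held by 13.2%, 8.82% and 8.89%, which is nearer to the share over all genes. In the list of TNF and NF-kB target genes it was held by 11 of the 16 with a promoter (68.8%). The serum response element was held by 0 of the 68 and by 1.11% of all tested genes. Among 67 higher genes the shares were 5.97% for the interferon core and 5.97% for NF-kB. A match is a description of the letters and not a site.

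**Figure D5:**
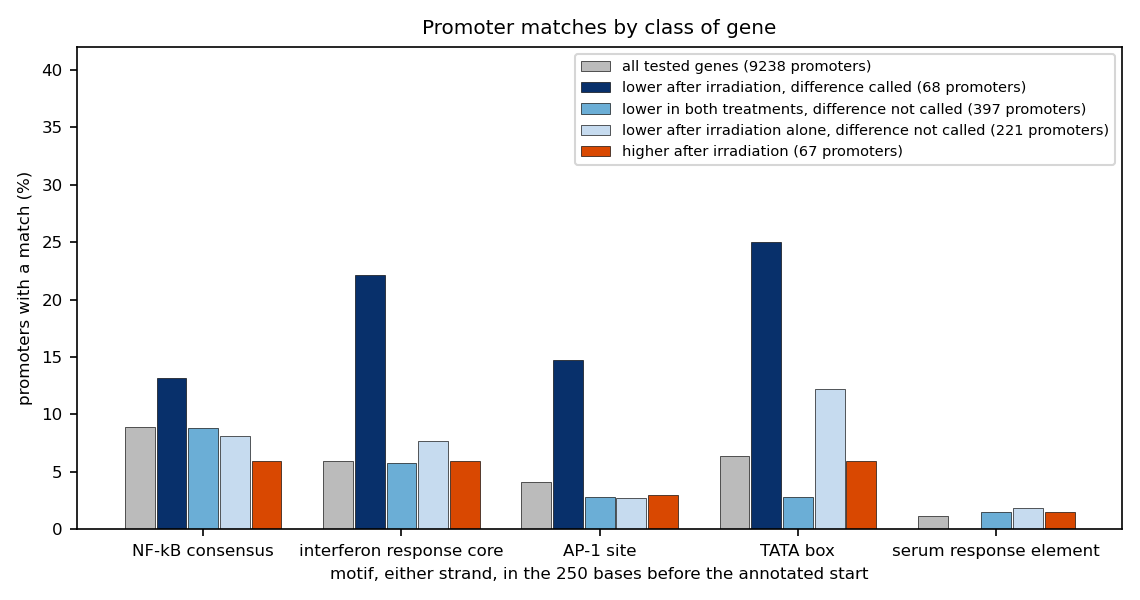
Share of promoters (bars, %) with a match to each of 5 motifs in the 250 bases before the annotated start, for all tested genes and 4 classes of called genes. The dark bars, genes whose host difference was more negative after irradiation, stand at 22.1% for the interferon response core and 25% for the TATA box against 5.9% and 6.37% over all tested genes.

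The 477 genes that were lower in both treatments with no called difference between them were described next. Their median difference was -1.33 after irradiation and -1.29 without. Their median gene length was 40.1 kb, against 44 kb for the 274 genes called lower only after irradiation, 10.8 kb for the 92 genes with a called difference between treatments and 22.7 kb over all tested genes. Zinc finger genes named Zfp with a number, a group chosen after their values were seen, had 49 of 244 tested members called lower and none higher after irradiation, 51 lower and 2 higher without, and none called between treatments. DNA damage and repair genes had 6 of 31 called lower, with medians of -0.36 and -0.36 in the 2 treatments. Lig4, the ligase of end joining, read 429 and 445 on the wild-type arrays and 109.6 and 116 on the receptor-deficient arrays, a difference of -1.82 ± 0.094 (SE, adjusted p = 0.000106), and 564 and 551 against 213 and 176 without irradiation. Its partner Xrcc4 (359 and 428 against 150.2 and 182), the cohesin subunit Smc3 (1204 and 1041 against 453 and 478), Rif1 (572 and 545 against 226 and 241), which steers the choice of repair pathway, and the damage kinase Atr (339 and 326 against 139 and 137) were lower too, with differences of -1.17, -1.24, -1.21 and -1.18. None of the repair genes was called between treatments.

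Genes of mitosis had 9 of 33 called lower and none higher, with a median of -0.38. Bub1, a spindle checkpoint kinase, read 1385 and 1346 against 436 and 509 after irradiation and 1906 and 1914 against 601 and 574 without, with differences of -1.50 and -1.67. Kif20b (-1.58 and -1.64) and Ttk (-1.22 and -1.0) were alike in both treatments. Mki67, the proliferation antigen, was the exception: it read 2015 and 1884 on the wild-type arrays and 484 and 469 on the receptor-deficient arrays, a difference of -2.0 ± 0.083 (SE, adjusted p = 7.95e-05), with -1.14 ± 0.12 (SE, adjusted p = 0.00692) between treatments. Other mitotic genes did not share this, such as Plk1 (0.30), Aurka (0.38), Cdc20 (0.46) and Birc5 (0.57), none of them called. Genes of DNA replication had no call among 34 in irradiated tumours and a median of 0.50; at an unadjusted p under 0.05, limma gave 21 higher and 8 lower. For Bub1 another probe set gave -0.61, and the mean of probe sets ended the calls of Kif20b, Ttk, Smc3 and Kif23.

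Agreement between probe sets of a gene was examined for all lower genes. Of the 843, 455 have another probe set above the filter level; it was on the same side in 427 (93.8%) and at least 2-fold lower in 199 (43.7%). For the 92 genes with a more negative host difference after irradiation the share at least 2-fold lower was 12 of 18 (66.7%), and for the 477 genes lower in both treatments 118 of 289 (40.8%). Scored on the mean of all probe sets per gene, 532 genes were called lower.

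Among genes of the stress and radiation response, heat shock chaperones had the most calls. Of 25 tested p53 targets only Ccng1 was called, at -1.11 ± 0.079 (SE, adjusted p = 0.000207), and it was lower still without irradiation (-1.91); with the mean of its probe sets the call was lost. Cdkn1a, the main cell cycle inhibitor downstream of p53, read 19462 and 19042 on the wild-type arrays and 19738 and 18701 on the receptor-deficient arrays, and overlapped between hosts. Mdm2 (-0.06) and Bbc3 (0.10) were not called. Of 29 immediate-early genes Atf3, a stress-induced repressor, was called lower (2452 and 2401 against 1216 and 1134, difference -1.04 ± 0.077 (SE, adjusted p = 0.000237)), and was under 2-fold without the second receptor-deficient array. Fos, a subunit of AP-1, read 5239 and 4974 against 5975 and 5940.3 after irradiation and 2992 and 3045 against 1554 and 1606 without; its host difference was not called after irradiation (0.22) but the difference between treatments was (1.15 ± 0.081 (SE, adjusted p = 0.00258)). Heat shock chaperones had 5 of 14 called lower, with a median of -0.51: Dnajb4 (-1.89), Dnaja1 (-1.35), Hspb1 (-1.25), Hsph1 (-1.15) and Hsp90aa1 (-1.07). Hspb1, a small chaperone, read 14398 and 13615 on the wild-type arrays and 6052 and 5709 on the receptor-deficient arrays, and its host difference was as large without irradiation (-1.41). Some lists of basic metabolism and survival had no call by limma, and their counts at an unadjusted p under 0.05 ran in both directions. Over all 11345 tested genes that level held 3631 higher and 3323 lower. Oxidative phosphorylation subunits had 8 higher and 5 lower of 30 at that level (median 0.04), and hypoxia and glycolysis genes 4 higher and 9 lower of 24 (median -0.14). The 24 include Pigq, a different gene that was matched by synonym to the listed Gpi1. Cytosolic ribosomal proteins had 1 higher and 5 lower of 26 (median -0.09), and the BCL2 family and caspase inhibitors 4 and 4 of 15 (median -0.03).

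Matrix genes went both ways after irradiation. Collagens had 3 of 17 called higher and none lower, with a median of 0.67, against 13 called higher and a median of 1.43 without irradiation. Col18a1, a collagen of vascular basement membranes, read 593 and 501 on the wild-type arrays and 1432 and 1232 on the receptor-deficient arrays, a difference of 1.26 ± 0.11 (SE, adjusted p = 0.000415). Col5a1 read 334 and 385 against 839 and 786 (difference 1.14), and Col12a1 read 34.3 and 68.7 against 144 and 103 (difference 1.08), though the call of Col12a1 was lost without the first array of either host. Col1a1 (0.37) and Col3a1 (0.33) were not called after irradiation, where without it they had been 1.43 and 1.64. Pdgfrb, the pericyte and fibroblast receptor, was higher at 285 and 309.6 against 659 and 670.2 (difference 1.12), but another probe set gave -0.30. In the same list Lox, the enzyme that cross-links collagen, was lower at 178 and 173 against 45.7 and 40 (difference -1.70 ± 0.099 (SE, adjusted p = 0.000123)), as were Thbs1 (-1.23), Dcn (-1.21) and Postn (-1.19). The calls of Lox, Thbs1 and Dcn were lost with the mean of their probe sets, and that of Dcn without the first receptor-deficient array. Each of these 4 had a called difference between treatments, from -1.56 for Thbs1 and -1.55 for Postn to -1.78 for Dcn and -2.25 for Lox. Metalloproteinases and their inhibitors had 4 of 14 called lower: Mmp13 (-1.61), Mmp9, Mmp12 (-1.33) and Adamts1 (-1.16).

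Vessel and blood genes held some of the higher calls. Aplnr, the apelin receptor of sprouting endothelium, read 430.2 and 432 on the wild-type arrays and 1366 and 1330.0 on the receptor-deficient arrays, a difference of 1.61 ± 0.057 (SE, adjusted p = 5.61e-05). It was as high without irradiation (1.76), and another probe set gave 0.96. No other of the 22 tested endothelial genes was called; the median was 0.37, and Pecam1 (0.15), Cdh5 (-0.19) and Kdr (0.53) were among them. Erythroid genes had 3 of 8 called higher and none lower. Alas2, the first enzyme of heme synthesis in red cell precursors, read 1324 and 1405 on the wild-type arrays and 3426 and 3723 on the receptor-deficient arrays, a difference of 1.38 ± 0.095 (SE, adjusted p = 0.00019) with 1.10 ± 0.13 (SE, adjusted p = 0.0112) between treatments. Slc4a1, the anion exchanger of red cells, read 139 and 111 against 439 and 510.5 (difference 1.80 ± 0.12 (SE, adjusted p = 0.000165)), and Epor, the erythropoietin receptor, 198 and 127 against 393 and 309 (difference 1.06). The call of Epor was lost without the first receptor-deficient or the second wild-type array. Hbb-b2, an adult beta globin that shares most of its sequence with its paralog, read 413 and 397 against 614 and 899.9 after irradiation and 164 and 102 against 37.7 and 64 without, the largest positive called difference between treatments (2.00 ± 0.42 (SE, adjusted p = 0.0403)), but another probe set gave -0.37.

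The highest genes were mostly dim. Cirbp, the cold-inducible RNA-binding protein, was with Aplnr the brightest of the 15 highest: it read 423 and 489 on the wild-type arrays and 1188 and 1246 on the receptor-deficient arrays, a difference of 1.39 ± 0.097 (SE, adjusted p = 0.0002). Mroh2a read 23.4 and 11.2 against 127 and 111 (difference 2.04 ± 0.17 (SE, adjusted p = 0.000331)), Cpne5, a copine that binds membranes in response to calcium, read 88.1 and 82.4 against 331 and 344 (1.80), and Apol11b read 43.9 and 77.2 against 213 and 253 (1.73). For these 4 genes no wild-type array overlapped a receptor-deficient array. They were picked for the size of the gap, so this separation is no further result. Slc43a1, an amino acid transporter, read 13.8 and 129 on the wild-type arrays and 237 and 254 on the receptor-deficient arrays, and its 2 wild-type arrays lay far apart. The wild-type duplicates also lay far apart for Dysf (10.1 and 65), Fhl2 (15 and 77.9) and Chst15 (14.9 and 39.3), and each of the 4 calls was lost without the first irradiated wild-type array, among other settings. Sema6c (difference 1.93), Fsd1 (1.70), Myo7b (1.47) and Efna2 (1.42) complete the group beside Krt6b, Aplnr and Slc4a1, and another probe set of Sema6c gave -0.11. The call of Myo7b was lost without any 1 of the 4 irradiated arrays, that of Sema6c without the first receptor-deficient or either wild-type array, that of Fsd1 without the second wild-type array, and that of Efna2 with the larger pseudocount. Krt6b, a keratin of activated epidermis, read 8.0 and 8.0 against 40.5 and 74.4 after irradiation and 53.3 and 29 against 959.9 and 1030.5 without, so it is the 1 higher gene whose difference between treatments was called lower (-2.60 ± 0.39 (SE, adjusted p = 0.0185)). Dmkn, another epidermal gene, was 68 and 33 against 68.1 and 54.2 after irradiation and 26.6 and 41.4 against 299 and 319.9 without (-2.46 ± 0.39 (SE, adjusted p = 0.0217)). Snorc, Plekha7, Fbrsl1 and Fndc4 had positive differences between treatments of 1.45, 1.42, 1.35 and 1.28.

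Bright pigment genes, which mark the tumour cells, overlapped between hosts in their sum. The 5 melanocyte markers Tyr, Dct, Pmel, Mlana and Tyrp1 summed to 159751.9 and 139984.0 on the wild-type arrays and 140867.3 and 133148.6 on the receptor-deficient arrays, and the ranges overlapped. Tyr, tyrosinase, read 15709.9 and 14997 on the wild-type arrays and 15828 and 14994 on the receptor-deficient arrays. Of 17 tested pigment genes, Kit, the stem cell factor receptor, was called higher (203 and 187 against 396 and 427, difference 1.02), but another probe set gave -0.05 and the call was lost without the second array of either host; the median was -0.09, and at an unadjusted p under 0.05 limma gave 6 higher and 4 lower. Of the 7 T, NK and B cell markers on the array, Cd3e, Cd3d, Ncr1, Nkg7, Cd79a and Ms4a1 were below the filter level, while Cd8a read 333 and 304 against 245 and 405, wild-type first, and overlapped between hosts; none of 4 tested T and NK genes was called by limma, with 1 higher and 1 lower at an unadjusted p under 0.05. The 4 endothelial markers summed to 780.1 and 667.7 on the wild-type arrays and 834.7 and 888.1 on the receptor-deficient arrays. The skeletal muscle list had 3 of 13 called lower, Myl1, Tnni2 and Myh1, all dim, and each call was lost without 1 or more of the irradiated arrays. Its 4 markers summed to 541.3 and 688.9 on the wild-type arrays and 368.7 and 384.7 on the receptor-deficient arrays. The part of the muscle, fat and blood carried in each pool was not tested.

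Genes near the disrupted loci were read as a check on the mixed stock. Over all 11345 tested genes, limma gave 3631 higher and 3323 lower at an unadjusted p under 0.05 after irradiation. None of 21 tested genes beside Tnfrsf1a was called by limma after irradiation (median 0.35), with 12 higher and 3 lower at an unadjusted p under 0.05, nor any of 21 beside Tnfrsf1b (median 0.29), with 11 higher and 4 lower. Genes known to vary between mouse strains had 2 of 8 called lower without irradiation, with a median of -0.33. After irradiation 5 of the 8 were called lower, with a median of -1.22, and none was called between treatments. All 5 were Trim genes of 1 cluster: Trim12c (308 and 236 against 61.9 and 50.1, difference -1.99), Trim30d (-1.57), Trim12a (-1.43), Trim34a (-1.42) and Trim30a (-1.02). They are also interferon-inducible, so strain and interferon response cannot be told apart for them here. Of 13 clock genes Nr1d2, a repressor of the clock, was called lower at 1316 and 1327 against 423 and 431 (difference -1.59) and likewise without irradiation (-1.84); Clock (-1.21) was called too, but its other probe sets gave 0.07 and -0.61. None of 12 glucocorticoid-responsive genes was called by limma, with 4 higher and 5 lower at an unadjusted p under 0.05 (median 0.01).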

How the data were processed

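RNA was extracted from excised tumours and pooled by group, per the labels' protocols, and biotin-labelled cRNA from 6 ug of pooled RNA was put on 8 Affymetrix whole-genome mouse arrays, 4 groups of 2 technical replicates. The deposited values are MAS5 signal intensities on a linear scale, per the submitters' processing notes, and each array has a trimmed mean of 500.0 with 2% trimmed at each end, so levels are relative within an array. Precision is limited by how few arrays there are.

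Signals were taken to log2(signal + 16) without further normalization. Of 45101 probe sets, 64 are controls, 34945 name 1 gene in the platform table, 932 several and 9160 none; each of 18193 genes was read by one probe set, the brightest of those with no other gene. Genes with a mean log2 of at least the non-control median (signal 68.8) were tested: 11345 genes. limma 3.58.1 (R 4.3.3) fitted 4 group means to the 8 arrays (4 residual degrees of freedom) with empirical Bayes moderation and Benjamini-Hochberg adjustment over all tested genes. A gene was called at an adjusted p under 0.05 and at least 2-fold. On simulated data of this design with 11345 genes, 94% of 4-fold and 36% of 2-fold genes were recovered, with 0 false calls among the unchanged genes. The 2-fold genes were set at the fold cut-off itself, and 74% of them passed the adjusted p alone. The simulation held only the spread between duplicate arrays. It gives no error rate for differences between pools, animals or target preparations. Fold changes on this scale understate those of dim genes.

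The comparison and the gene lists were chosen with earlier results of these data known. Listed symbols not found among the genes of the array were matched by synonym. This put Pigq in place of Gpi1 among hypoxia and glycolysis genes and Loxl3 in place of Loxl2 among fibroblast genes. The text names Tnfrsf1a, Tnfrsf1b and Tnf; the 15 highest and 15 lowest called genes after irradiation; the 8 highest and 8 lowest called differences between treatments; up to 5 called members per list; and list members past 4-fold that were too dim to be tested. Members named as not called were chosen after their values were seen. Promoters are the 250 bases before the first listed start per gene in RefSeq's GRCm38.p6 annotation. Same-numbered arrays of different groups did not deviate together (correlations of -0.03 to 0.05), so numbers do not pair arrays. Alternatives were the normalization, pseudocount (none or 64), filter, probe set rule, fold threshold, model and each array left out.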

Additional observations from a re-analysis of the deposited data

Results flagged for a closer look

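The host difference in irradiated tumours and that in untreated tumours differed, by limma's test of the difference itself, for 233 genes in the lower direction and 18 in the higher direction; among the 72 of these named in the report, adjusted p-values ran from 0.000943 to 0.0426. Values are log2 differences, irradiated minus untreated, of the receptor-deficient minus wild-type host difference. Chemokines, acute-phase proteins and products of neutrophils had lower host differences after irradiation than without: Saa3 -2.62, S100a9 -2.61, Cp -2.49, Lcn2 -2.42, S100a8 -2.42, Cxcl9 -2.37, Hp -2.33, Ccl3 -2.32, Ccl5 -2.21, Wfdc21 -2.14, Cxcl3 -2.08, Stfa2l1 -1.94, Cxcl2 -1.86, Cxcl1 -1.42, Ccl4 -1.41, Il1r2 -1.37 and Clec4d -1.35. Genes of macrophages, phagocyte receptors and interleukin-1 had lower host differences after irradiation than without: Chil3 -2.83, Fpr2 -2.68, G0s2 -2.55, Acod1 -2.46, Srgn -2.34, Clec4e -2.33, Il1b -2.23, Cd14 -2.15, Il1rn -1.86, Slfn4 -1.71, Tyrobp -1.69, Csf1r -1.67, Il18bp -1.58, Ptgs2 -1.46 and C1qa -1.42. Regulators of NF-kB and stress genes had lower host differences after irradiation than without: Birc3 -1.84, Nfkbia -1.65, Tnfaip3 -1.61, Relb -1.45, Atf3 -1.45, Nfkbiz -1.19 and Dnajb4 -1.06. Interferon-induced and antigen presentation genes had lower host differences after irradiation than without: H2-DMa -1.96, H2-Eb1 -1.89, Cd74 -1.88, Gbp6 -1.69, Gbp2 -1.65, Zbp1 -1.59, Ifit1 -1.43, Oasl2 -1.38, Ifit3 -1.37, H2-Aa -1.29 and H2-Ab1 -1.03. So did genes of the matrix, epidermis and cell division: Krt6b -2.60, Dmkn -2.46, Lox -2.25, Mmp13 -1.90, Mmp9 -1.83, Dcn -1.78, Thbs1 -1.56, Postn -1.55, Col3a1 -1.31, Mmp12 -1.26, Mki67 -1.14 and Col1a1 -1.06. The opposite sign was called for Slc4a1 1.05, Alas2 1.10, Fos 1.15, Fndc4 1.28, Mroh2a 1.34, Fbrsl1 1.35, Plekha7 1.42, Snorc 1.45, Cpne5 1.96 and Hbb-b2 2.00. The test covers the spread between duplicate arrays of 4 pools and not the spread between animals.

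Control probe sets outside the comparison also carried a signal. The poly-A spike-ins averaged 22472.2 (dap), 4055.8 (lys), 7345.8 (phe) and 9170.7 (thr) on the irradiated wild-type arrays and 14.9, 23.6, 11 and 24.7 on the irradiated receptor-deficient arrays. On untreated wild-type arrays they averaged 13941.3, 1924.8, 3500.8 and 4526.2. What part this difference in target preparation has in the host differences was not tested.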

How the results depend on the processing

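Counts of called genes moved with the settings. After irradiation, 90 genes were called higher and 843 lower. The higher count was 167 with quantile normalization, 35 with a pseudocount of 64, 178 with no filter, 39 with a filter at the 75th percentile, 3223 with no fold threshold, 1 at 4-fold and 407 over all probe sets. The lower count was 447 with the stricter filter, 532 with the mean of probe sets, 3093 with no fold threshold, 50 at 4-fold and 2068 over all probe sets. Without irradiation, 234 higher became 128 with arrays centred on the median, 131 with the larger pseudocount, 370 with no filter, 91 with the stricter filter, 2998 with no fold threshold, 15 at 4-fold and 1185 over all probe sets. There, 709 lower became 1118 with centring, 406 with the stricter filter, 414 with the mean of probe sets, 2698 with no fold threshold, 12 at 4-fold and 1606 over all probe sets. Of genes called lower in both treatments (487), the stricter filter left 294, the mean of probe sets 245, no fold threshold gave 2214, the 4-fold threshold 8 and all probe sets 992. Of those higher in both (20), the larger pseudocount left 6, the stricter filter 7, no fold threshold gave 1893, the 4-fold threshold 0 and all probe sets 80. The difference between treatments was called higher for 18 genes and for 32 with quantile normalization, 101 with centring, 7 with the larger pseudocount, 9 with the stricter filter, 10 with the mean of probe sets, 399 with no fold threshold, 1 at 4-fold and 28 with limma-trend. It was called lower for 233, and for 89 with the stricter filter, 685 with no fold threshold and 28 at 4-fold. Fewer genes were tested under the stricter filter, and more genes or probe sets with no filter and over all probe sets. The fold thresholds change only the cut-off applied to the same fit. What causes the other changes was not tested.

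With each array left out in turn, 88 to 140 genes were called higher after irradiation (140 without the first irradiated wild-type array) and 824 to 902 lower. The difference between treatments was then called higher for 6 to 20 genes (6 without the first untreated wild-type array, 8 without the first untreated or the second irradiated receptor-deficient array) and lower for 148 to 189 (148 and 155 without the second and the first untreated receptor-deficient array).

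Replicate numbers do not pair the arrays. With the replicate number as a block, 94 genes were called higher and 844 lower after irradiation, and the difference between treatments was called higher for 7 and lower for 186.

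Centring moved the median of all tested genes without irradiation from 0.08 to -0.12 on the log2 scale and the higher share of calls from 24.8% to 10.3%. After irradiation that share was 9.65%, 13.3% with centring and 18.9% with quantile normalization. Of 120 named called genes, 75 were called under every setting run and 0 changed sign in any of them. They had been chosen as called at 2-fold or more, which leaves little room for a change of sign. Calls were lost most often with the mean of probe sets (27) and the pseudocount of 64 (22). Of 30 lists with a median of at least 0.3 in size, 2 had a median of the other sign under a setting. Of 2078 list counts compared, 236 lay outside 1.5 times the main count. Dmkn, which was not called, went from 0.26 to between -0.13 and 0.65 with an array left out, the lowest without the second irradiated wild-type array. Dim genes rest on signals near the filter, and duplicate arrays of 1 pool per group measure no spread between animals.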

Other observations

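Xist, the RNA that coats the inactive X chromosome of female cells, was picked out after its values were seen. It read 417 and 398 on the irradiated wild-type arrays against 634 and 604 on the irradiated receptor-deficient arrays. Without irradiation it read 191 and 214 against 876 and 903. The sex of the hosts is not given in the labels used here, and what sets these levels was not tested.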
